A study of Rattus norvegicus with 4 samples.

Results

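The endoplasmic reticulum (ER) chaperone and stress genes described here are 10 genes of cultured rat Schwann cells (SCs), taken by gene symbol from the 17949 genes of the count table. They were Hspa5, Hsp90b1, Calr, Pdia4, Hyou1, Dnajb9, Sdf2l1, Ern1, Xbp1 and Herpud1, and each had its own row and passed the filter on low counts. The RNA-seq samples were primary SCs from rat sciatic nerve, infected for 48 h either with a control lentivirus that carried GFP (Lenti-GFP, n = 2) or with one that carried the Egr2-AS (Lenti-AS, n = 2), an RNA transcribed antisense to promoter sequence of Egr2. Both groups were grown in 10% FBS with 4 μM forskolin and 5 ng/ml heregulin-β1, the vectors differed in their fluorescent reporter as well as in the Egr2-AS, and the age, sex and number of the donor rats were not given. All values come from SCs in culture without axons, and no row of the table names the Egr2-AS, so the labels were not checked by it. The study calls the samples biological replicates without saying what separates them, so p-values measure only the spread between these samples.

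The ER folds the membrane and secreted proteins that a SC needs in bulk for myelin and basal lamina. When unfolded proteins build up in it, sensors in its membrane start the unfolded protein response (UPR). In this response IRE1, encoded by Ern1, splices the Xbp1 mRNA into the form that makes an active transcription factor, ATF6 is cut free from the membrane, and PERK slows translation and favours ATF4. XBP1 and ATF6 raise chaperones and degradation genes through ER stress elements (ERSE) in their promoters.

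The promoters are shown first because the UPR is known to act on ER chaperone genes through promoter sequences. RefSeq promoters of the GRCr8 assembly were matched for 9 of the 10 genes (Ern1 had no match), and the 250 bases before the start were searched on both strands. The counts were made on rn6, so these coordinates belong to GRCr8 alone. ERSE, CCAAT and CCACG with 9 bases between them, was present in 4 of the 9 genes (Hspa5, Hsp90b1, Xbp1 and Calr) and in 22 of all 33469 promoters (0.0657%). ERSE-II, ATTGG and CCACG with 1 base between them, was present in Hyou1 and Herpud1 and in 0.0418% of all promoters. The UPRE core TGACGTGG, which XBP1 and ATF6 can bind, was present in Hyou1 and in 0.52% of all promoters, and there it overlapped an ERSE-II. Pdia4, Dnajb9 and Sdf2l1 had no match to any of these. Only exact matches were counted, and a match is a run of letters and not evidence of binding. For Herpud1 and Dnajb9 the RefSeq gene extends further upstream than the start used here. Below are the 250 bases upstream of the start of 4 genes on which the results turn, 5′ to 3′ on the strand of the gene, with the fixed letters of ERSE or ERSE-II in capitals. They are Hspa5 at chr3:38452766-38453015 (plus strand), Xbp1 at chr14:84604373-84604622 (plus strand), Calr at chr19:40213117-40213366 (plus strand) and Herpud1 at chr19:10614708-10614957 (minus strand).
Hspa5: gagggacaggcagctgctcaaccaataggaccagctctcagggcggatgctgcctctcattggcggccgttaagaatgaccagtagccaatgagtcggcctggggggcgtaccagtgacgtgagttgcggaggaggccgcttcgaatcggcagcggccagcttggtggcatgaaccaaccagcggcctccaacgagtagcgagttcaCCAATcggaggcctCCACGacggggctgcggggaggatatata
Xbp1: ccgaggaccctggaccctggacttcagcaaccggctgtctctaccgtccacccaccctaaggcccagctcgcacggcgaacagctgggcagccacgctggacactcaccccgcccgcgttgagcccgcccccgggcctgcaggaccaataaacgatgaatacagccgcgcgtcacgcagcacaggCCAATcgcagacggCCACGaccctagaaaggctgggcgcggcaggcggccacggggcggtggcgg
Calr: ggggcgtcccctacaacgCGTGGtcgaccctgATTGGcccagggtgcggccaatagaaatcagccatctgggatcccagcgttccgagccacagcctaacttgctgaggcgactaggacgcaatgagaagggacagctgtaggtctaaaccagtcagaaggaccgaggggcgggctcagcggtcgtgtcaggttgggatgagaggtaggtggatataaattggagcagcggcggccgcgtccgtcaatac
Herpud1: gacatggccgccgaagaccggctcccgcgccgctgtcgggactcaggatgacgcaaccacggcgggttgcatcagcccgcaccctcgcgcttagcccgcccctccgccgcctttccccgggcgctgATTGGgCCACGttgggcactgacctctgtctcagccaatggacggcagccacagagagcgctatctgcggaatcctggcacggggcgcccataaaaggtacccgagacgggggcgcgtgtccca

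The element began 43 bases before the start in Hspa5, 65 bases before it in Xbp1 and 232 bases before it in Calr, where it ran on the opposite strand, and the ERSE-II of Herpud1 began 124 bases before the start. Hsp90b1 held a pair of ERSE matches and Hyou1 a pair of ERSE-II matches, and they are shown because the same kind of element stood before genes with other values than Hspa5. The matches of Hyou1 lay in its promoter at chr8:53602632-53602881 (plus strand). Another promoter of Hyou1, at chr8:53602822-53603071 (plus strand), held no match to ERSE, ERSE-II or the UPRE core.
Hsp90b1, far element: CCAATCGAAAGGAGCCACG
Hsp90b1, near element: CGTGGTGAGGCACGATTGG
Hyou1, far element: CGTGGGCCAAT
Hyou1, near element: CGTGGCCCAAT

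Total counts were 74024323 to 96185890 per sample, and levels are given as CPM, the standard depth-scaled read count, with library sizes scaled by TMM, edgeR's correction for differences in RNA composition. These are not divided by gene length, so they are compared between samples and not between genes. Egr2 itself had 49.2 and 42.1 CPM in Lenti-GFP against 61.2 and 54.0 CPM in Lenti-AS, with Lenti-AS above (log2 fold change 0.33, adjusted p = 0.152 from edgeR and 0.0336 from DESeq2). For EGR2 protein, Egr2 accessibility and Egr2 promoter activity the paper reports the opposite direction, and these are measures other than RNA level. The reason for the difference was not tested. The samples carried SC markers, with S100b between 2027 and 2358 CPM and 12 of the 13 SC markers in the table at 1 CPM or more in all 4 samples. Lenti-AS 1 stood apart from the other samples. Of the 10251 genes whose mean reached 1 CPM, 324 (3.16%) were at least 1.5-fold higher in Lenti-AS 1 than in any other sample, while the other samples had 3 to 18 such genes. The values of Calr, Herpud1 and Bag3 are also given without it, and those of the other ER genes as ranges with each sample left out. Over the fibroblast marker list the summed level was 7433 to 7526 CPM in Lenti-GFP and 4279 to 6501 CPM in Lenti-AS, and the lower sum came from Postn, which encodes the matrix protein periostin and fell from 6296 ± 184 to 3688 ± 153 CPM (SD, 2 samples each, log2 fold change -0.77, adjusted p = 0.0144 from edgeR). Of the 10 fibroblast genes, 6 had 1 CPM or more in all 4 samples, among them Pdgfrb at 225 to 279 CPM and Col1a2 at 120 to 340 CPM. Postn was the only called gene of the list, and Col1a1 ranged from 290 CPM in Lenti-AS 2 to 2131 CPM in Lenti-AS 1. Dcn, Lum, Dpt and Thy1 did not pass the filter. The part of fibroblasts in the results was not tested. Markers of macrophages summed to at most 4.58 CPM, and those of B and plasma cells, which are rich in ER chaperones, to at most 0.479 CPM. Endothelial markers summed to 20.9 and 21.1 CPM in Lenti-GFP and 15.6 and 16.2 CPM in Lenti-AS. Of their 7 genes only Tek had 1 CPM or more in all samples, with means of 20.0 and 15.0 CPM. Its log2 fold change was -0.42 (adjusted p = 0.0559 from edgeR and 0.00324 from DESeq2). The reason for its lower level was not tested. Globin RNA was high in Lenti-AS 2 alone, where the red blood cell list summed to 1983 CPM against at most 5.32 CPM elsewhere.

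To determine whether expression of the Egr2-AS changed ER chaperone and stress genes, Lenti-AS was compared with Lenti-GFP. None of the 10 genes was called by edgeR's quasi-likelihood test at an adjusted p under 0.05 and a fold change of at least 1.3, where 1.98% of the 12446 genes tested were called (1.31% higher and 0.667% lower). With no limit on the fold edgeR still passed 0 of them, against 2.18% of all genes. The differences that did separate the groups were small and ran in both directions. Hspa5, Xbp1, Pdia4, Dnajb9 and Hyou1 were lower in both Lenti-AS samples than in both Lenti-GFP samples, and Herpud1 and Ern1 were higher in both. The groups were thus separate in 7 of the 10 genes, where 54.9% of all genes tested were separate, 27.2% with Lenti-AS below and 27.7% with Lenti-AS above. At an unadjusted p under 0.05 there were 5 of the 10 genes, 4 lower and 1 higher, where 21.8% of all genes passed (9.37% lower and 12.5% higher). DESeq2, which called 6.25% of the genes it gave an adjusted p, and limma-voom also called 0 of the 10 genes at both cut-offs. With no limit on the fold, DESeq2 gave an adjusted p under 0.05 for 4 genes (Hspa5, Xbp1, Pdia4 and Herpud1) where 13.1% of the genes with an adjusted p passed (5.21% lower and 7.93% higher), and limma-voom for Hspa5 alone. Over the 10 genes the log2 fold changes had a median of -0.0799, and that of all genes tested was 0.0071. An exact permutation test of 2 samples against 2 cannot give a two-sided p below 0.333, so single values were not tested in that way.

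**Figure D1:**
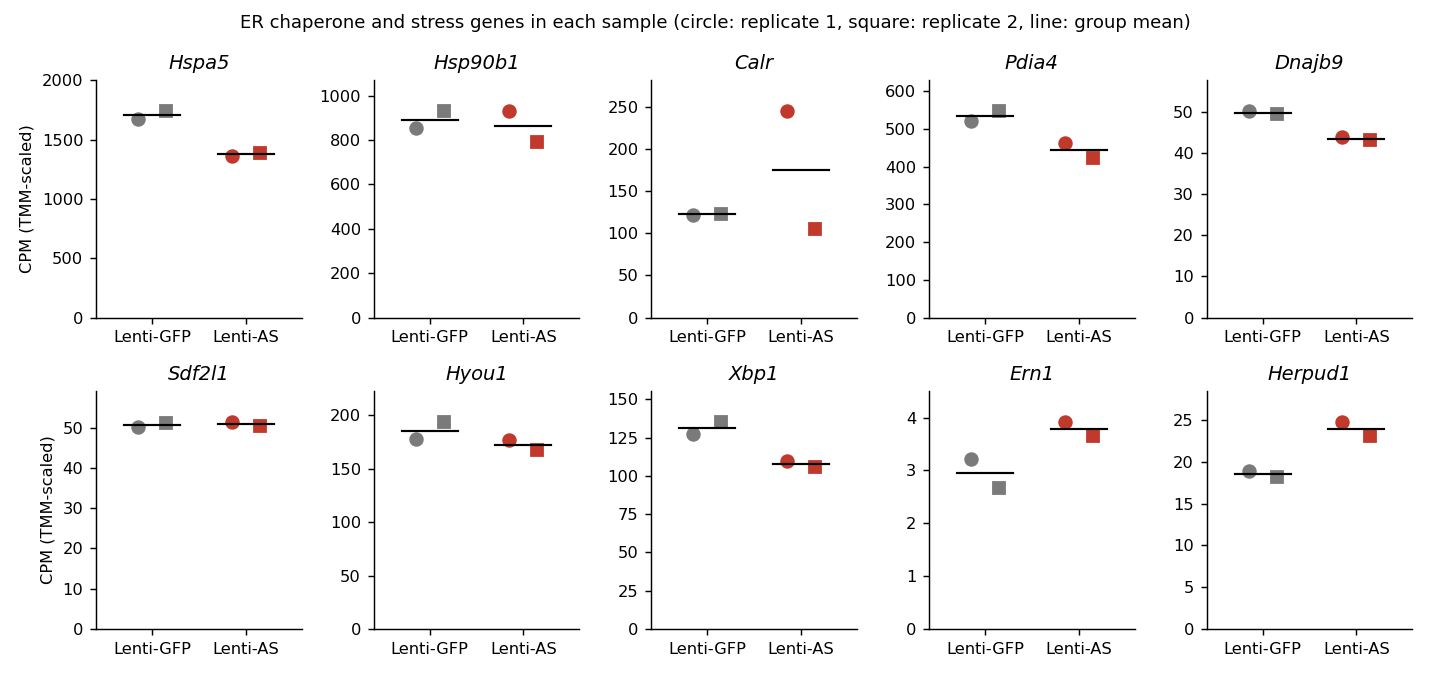
CPM of each of the 10 ER genes (y axis, from 0, one scale per panel) in the 2 Lenti-GFP (grey) and 2 Lenti-AS samples (red), with circles for replicate 1, squares for replicate 2 and lines for group means. Hspa5 lay at 1673 and 1742 CPM in Lenti-GFP and 1360 and 1389 CPM in Lenti-AS, and Calr reached 246 CPM in Lenti-AS 1 alone.

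Hspa5 encodes BiP, the main HSP70 chaperone of the ER lumen, which also holds the UPR sensors inactive. Its level was 1673 and 1742 CPM in Lenti-GFP against 1360 and 1389 CPM in Lenti-AS. The groups were separate, with Lenti-AS below, and the gap between the groups was several times the difference within either of them. The mean level was 1708 ± 48.9 CPM for Lenti-GFP against 1374 ± 20.4 CPM for Lenti-AS (SD, 2 samples each). The log2 fold change was -0.31 (standard error 0.05, 95% interval -0.45 to -0.18), which is 1.24-fold lower, with an edgeR adjusted p = 0.0506, just over the threshold. Its adjusted p was 1.37e-05 with DESeq2, 0.0428 with limma-voom and 0.0272 with no filter on low counts. It was 0.0510 to 0.0605 with the other scalings, the other filter and the newer edgeR fit, 0.0996 with a replicate block, and 6.35e-04 to 0.502 in edgeR fits with a sample left out. Of the 10 genes it had the smallest edgeR p, and 281 of all genes tested had a smaller one. In bulk RNA, fewer cells with a high level and less RNA per cell cannot be told apart.

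Hsp90b1 and Hyou1, the other large chaperones of the lumen, had intervals that took in 0. Hsp90b1 encodes GRP94, the HSP90 of the ER, which folds integrins and Toll-like receptors. It had 854 and 929 CPM in Lenti-GFP and 931 and 791 CPM in Lenti-AS, so the groups overlapped. Its log2 fold change was -0.05 (standard error 0.09, 95% interval -0.27 to 0.17, adjusted p = 0.783 from edgeR), an interval that leaves out a change of 1.3-fold in either direction. Hyou1 encodes GRP170, an ER chaperone that also exchanges the nucleotide of BiP. It had 177 and 194 CPM in Lenti-GFP and 176 and 167 CPM in Lenti-AS, and the nearest samples of the groups differed by less than the Lenti-GFP samples did. The log2 fold change of Hyou1 was -0.11 (95% interval -0.27 to 0.05, adjusted p = 0.374 from edgeR). Summed over the 10 genes, the level was 3599 and 3793 CPM in Lenti-GFP and 3411 and 3102 CPM in Lenti-AS, with both Lenti-AS samples lower. Without Hspa5 the sums were 1926 and 2050 CPM in Lenti-GFP and 2051 and 1713 CPM in Lenti-AS, and the groups overlapped.

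Pdia4 encodes a protein disulfide isomerase, which forms and rearranges disulfide bonds. It had 522 and 548 CPM in Lenti-GFP and 463 and 424 CPM in Lenti-AS. The samples of the 2 groups were separate, and the log2 fold change was -0.27 (standard error 0.07, 95% interval -0.43 to -0.11), with an adjusted p = 0.0985 from edgeR and 0.00549 from DESeq2.

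Calr encodes calreticulin, the lectin chaperone that binds calcium and holds new glycoproteins in the lumen. It had 122 and 123 CPM in Lenti-GFP, 246 CPM in Lenti-AS 1 and 105 CPM in Lenti-AS 2. The Lenti-AS samples lay on either side of Lenti-GFP, with Lenti-AS 1 2.01-fold above the Lenti-GFP mean and Lenti-AS 2 below it. The 2.34-fold difference between the Lenti-AS samples was far beyond counting error, with 21521 counts (exact Poisson 95% interval 21234 to 21810) in Lenti-AS 1 and 7897 counts (7724 to 8073) in Lenti-AS 2. These intervals cover counting error only. The mean level was 122 ± 1.11 CPM for Lenti-GFP against 175 ± 99.3 CPM for Lenti-AS (SD, 2 samples each), and the log2 fold change of 0.52 had a standard error of 0.35 (95% interval -0.35 to 1.39, adjusted p = 0.431 from edgeR). Without Lenti-AS 1 the log2 fold change of Calr was -0.22 (adjusted p = 0.0126 from edgeR) and without Lenti-AS 2 it was 1.00 (adjusted p = 1.41e-14 from edgeR), so the direction rested on which sample was kept. Calr was the only ER gene of the 10 that belonged to the genes at least 1.5-fold higher in Lenti-AS 1 than in any other sample. Others with this pattern were Atf6b, a homologue of the UPR factor ATF6, at 22.4 CPM in Lenti-AS 1 against at most 9.53 CPM elsewhere, the SC factor Sox10 at 163 CPM against at most 77.1 CPM, and the collagen gene Col1a1. The cause of this pattern was not tested.

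Of the co-chaperones, the groups were separate for Dnajb9 and overlapped for Sdf2l1. Dnajb9 encodes ERdj4, a J-domain protein that brings BiP to misfolded proteins and to IRE1. It had 50.3 and 49.5 CPM in Lenti-GFP and 43.9 and 43.1 CPM in Lenti-AS. Replicates lay close together and the groups were separate, with a log2 fold change of -0.20 (standard error 0.06, 95% interval -0.36 to -0.04) and an adjusted p = 0.165 from edgeR. Sdf2l1 encodes a lumenal partner of ER J-domain proteins that is strongly induced in ER stress. It had 50.3 and 51.1 CPM in Lenti-GFP and 51.4 and 50.5 CPM in Lenti-AS, with all samples within the same narrow range. The log2 fold change of Sdf2l1 was 0.0071 (95% interval -0.15 to 0.17, adjusted p = 0.960 from edgeR), an interval that leaves out a change of 1.3-fold. Its paralog Sdf2, which is not known as a stress gene, had 129 and 130 CPM in Lenti-GFP and 117 and 113 CPM in Lenti-AS (log2 fold change -0.17, adjusted p = 0.158 from edgeR).

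Of the IRE1 branch, Ern1 had few counts. It had 3.21 and 2.67 CPM in Lenti-GFP and 3.91 and 3.66 CPM in Lenti-AS, from 253 to 343 counts. The groups were separate, with Lenti-AS above, but counting error alone was 5.40% to 6.29% of each count. The log2 fold change of Ern1 was 0.36 (standard error 0.17, 95% interval -0.06 to 0.79, adjusted p = 0.278 from edgeR). Its paralog Ern2, a gene of mucosal epithelia, had 1 to 8 counts and was not tested. Xbp1, the mRNA that IRE1 splices, had 127 and 135 CPM in Lenti-GFP and 110 and 106 CPM in Lenti-AS. The groups were separate by more than either pair of replicates, and the log2 fold change was -0.28 (standard error 0.06, 95% interval -0.43 to -0.14), with an adjusted p = 0.0789 from edgeR and 0.00278 from DESeq2. Counts per gene do not tell spliced from unspliced Xbp1 mRNA, so the activity of IRE1 was not measured.

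Herpud1 encodes an ER membrane protein with a ubiquitin-like domain that helps to assemble the machinery of ER-associated degradation. It had 18.9 and 18.1 CPM in Lenti-GFP and 24.7 and 23.1 CPM in Lenti-AS. The Lenti-AS samples both lay above Lenti-GFP, and the log2 fold change was 0.37 (standard error 0.07, 95% interval 0.19 to 0.55), which is 1.29-fold, with an adjusted p = 0.0720 from edgeR and 0.00921 from DESeq2. Its direction was opposite to that of Hspa5 and Xbp1. The 250 bases searched held an exact match to ERSE-II and no exact match to ERSE. Inexact matches and bases further upstream were not searched, so an ERSE is not excluded. Without Lenti-AS 1 the log2 fold change of Herpud1 was 0.32, and without Lenti-AS 2 it was 0.42. The paralog Herpud2 had 22.9 and 22.7 CPM in Lenti-GFP and 29.6 and 24.6 CPM in Lenti-AS (log2 fold change 0.25, adjusted p = 0.223 from edgeR).

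**Figure D2:**
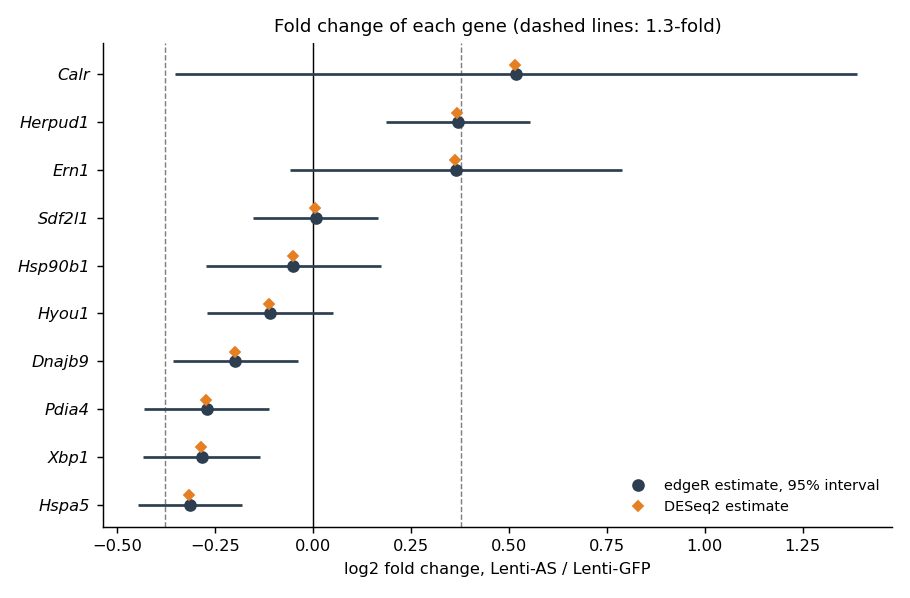
Log2 fold change of Lenti-AS over Lenti-GFP for each gene (x axis), with edgeR estimates and their 95% intervals as circles and lines, DESeq2 estimates as diamonds, and dashed lines at 1.3-fold. The intervals of Hspa5, Xbp1, Pdia4 and Dnajb9 lie below 0, that of Herpud1 lies above 0, and that of Calr runs from -0.35 to 1.39.

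The 4 genes with ERSE in the window searched had values on both sides of 0. Hspa5 and Xbp1 had log2 fold changes of -0.31 and -0.28, Hsp90b1 of -0.05 and Calr of 0.52. Only Calr lay above 0, and its groups overlapped. Without Lenti-AS 1 the values of Hspa5, Xbp1, Hsp90b1 and Calr were all below 0 (-0.30, -0.31, -0.17 and -0.22). Without Lenti-AS 2 those of Hsp90b1 and Calr were 0.06 and 1.00. The genes with ERSE-II, Hyou1 and Herpud1, had -0.11 and 0.37. These are descriptions of 6 genes, and no test was made of the elements.

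When each sample was left out in turn, the direction held for Hspa5 (-0.34 to -0.28 on the log2 scale), Xbp1 (-0.32 to -0.24), Pdia4 (-0.34 to -0.21), Dnajb9 (-0.21 to -0.18), Hyou1 (-0.17 to -0.0444), Herpud1 (0.32 to 0.42) and Ern1 (0.24 to 0.51). It turned for Hsp90b1, Calr and Sdf2l1, whose groups overlapped. In the genes where it held, the groups were already separate, so leaving out 1 sample could hardly turn it. For those genes the ranges show only how far the size of the change moved.

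**Figure D3:**
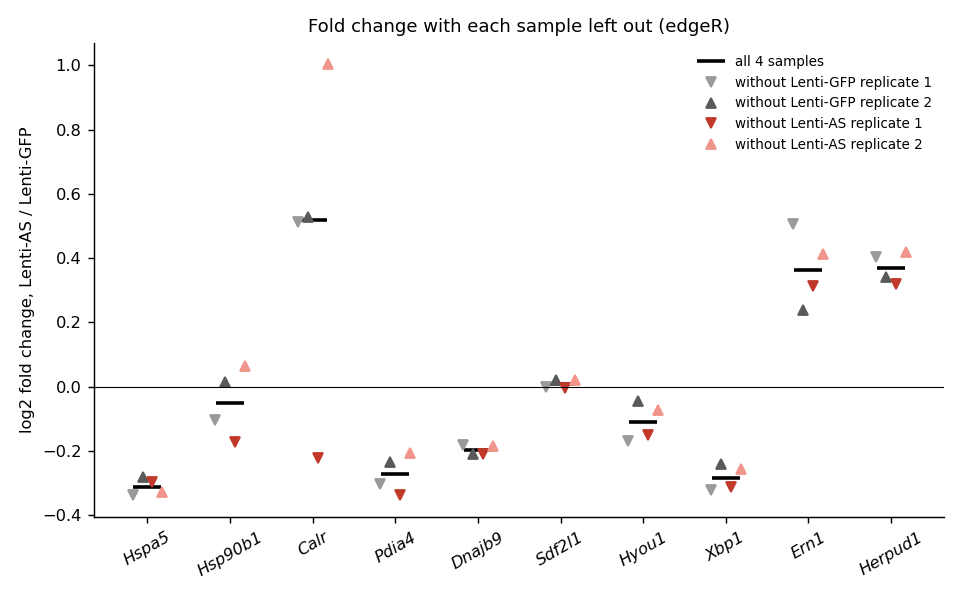
Log2 fold change of Lenti-AS over Lenti-GFP (y axis) for the 10 genes with all 4 samples (black bars) and with each sample left out in turn (triangles). Calr moves from -0.22 without Lenti-AS replicate 1 to 1.00 without Lenti-AS replicate 2, while Hspa5 stays between -0.34 and -0.28.

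The 10 genes were then set beside 7 hand-written lists of other genes of protein folding and the UPR. Of the 150 genes of these lists that were tested, 2 were called by edgeR (1.33%, against 1.98% of all genes), Sesn2 and Asns, both higher in Lenti-AS and both targets of ATF4. DESeq2 called 8 of the 150, or 5.33% against 5.04% of all genes tested. The edgeR share was thus below that of all genes and the DESeq2 share was close to it. The DESeq2 calls were 8 genes (Asns, Sesn2, Ddit4, Cebpb, Cnpy3 and Bag3 higher, Fkbp7 and Dnajb4 lower), and limma-voom called 3 (Asns, Sesn2 and Dnajb4). Bag3, a co-chaperone of HSP70, had 20.1 CPM in Lenti-AS 1 and 8.37 to 10.3 CPM elsewhere, and its log2 fold change of 0.86 was 0.30 without Lenti-AS 1 (adjusted p = 0.10 from edgeR). Among the 15 targets of the PERK, ATF4 and CHOP branch, 7 were higher and 1 was lower at an unadjusted p under 0.05. Of all genes tested, 12.5% were higher and 9.37% lower. The median log2 fold change of the 15 targets was 0.33. Other genes of the branch had intervals that took in 0, such as Atf3 (log2 fold change 0.02) and Ppp1r15a (0.15). So did Atf4 itself (0.03) and Ddit3, which encodes CHOP (0.17). Sesn2, which encodes a stress-induced inhibitor of mTORC1, rose from 20.4 ± 0.775 CPM in Lenti-GFP to 32.9 ± 0.767 CPM in Lenti-AS (SD, 2 samples each, +0.69 on the log2 scale, edgeR adjusted p = 0.0191). Asns, which encodes asparagine synthetase, rose from 13.8 ± 0.276 CPM to 20.2 ± 1.04 CPM (SD, 2 samples each, +0.55 on the log2 scale, edgeR adjusted p = 0.0394). These genes also respond to amino acid shortage without ER stress. With a sample left out or a replicate block fitted, the log2 fold change was 0.66 to 0.74 for Sesn2 and 0.49 to 0.60 for Asns. Neither was called without a Lenti-GFP sample, where 1 gene of the whole table was, or with the block, where 3 genes were called higher and 14 lower.

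Among the sensors and transcription factors of the UPR, 0 of 14 genes were called by edgeR, DESeq2 or limma-voom. At an unadjusted p under 0.05 in edgeR there were 3 of them, where 21.8% of all genes tested passed. The smallest p-values were those of Nfe2l2, which encodes the antioxidant factor NRF2, at 75.6 and 83.3 CPM in Lenti-GFP and 104 and 94.4 CPM in Lenti-AS (log2 fold change 0.32, adjusted p = 0.109 from edgeR), and of Creb3, an ER-bound transcription factor, at 93.5 and 88.9 CPM and 73.5 and 79.9 CPM (log2 fold change -0.25, adjusted p = 0.132 from edgeR). The median of this list was 0.0075.

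Of 34 other ER folding proteins, 0 were called by edgeR or limma-voom and 1 in each direction by DESeq2. At an unadjusted p under 0.05, 16 were lower and 2 higher, where 9.37% of all genes tested were lower and 12.5% higher. Both Lenti-AS samples were below both Lenti-GFP samples in 21 of the 34, a larger share than the 27.2% of all genes tested. The median log2 fold change was -0.15. Ppib, a prolyl isomerase of collagen folding, had 688 and 715 CPM in Lenti-GFP and 596 and 575 CPM in Lenti-AS (log2 fold change -0.26, adjusted p = 0.0755 from edgeR). Pdia6, a disulfide isomerase, had 875 and 889 CPM in Lenti-GFP and 762 and 749 CPM in Lenti-AS (log2 fold change -0.22, adjusted p = 0.0874 from edgeR). No set test was made, and whether this list stands apart from other genes of its level was not tested.

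Of 26 genes of ER-associated degradation, 0 were called by edgeR, DESeq2 or limma-voom, and the median log2 fold change was -0.0398. At an unadjusted p under 0.05, 6 were lower and 3 higher, where 9.37% of all genes tested were lower and 12.5% higher. The selenoprotein gene Selenos had 127 and 126 CPM in Lenti-GFP and 104 and 101 CPM in Lenti-AS (log2 fold change -0.30, adjusted p = 0.0576 from edgeR), and the ubiquitin-conjugating enzyme gene Ube2j2 had a log2 fold change of -0.23 (adjusted p = 0.0943 from edgeR). Herpud1 thus had the opposite sign to Selenos and Ube2j2, the genes with the smallest p-values in this list. It had the same sign as the 3 higher genes, Dnajb12 (log2 fold change 0.34), Aup1 (0.26) and Herpud2 (0.25). Of 24 genes of translocation into the ER, 0 were called by these tools, and the median was -0.10. At an unadjusted p under 0.05, 7 were lower and 2 higher, beside the same shares of all genes (9.37% and 12.5%). The translocon subunit gene Sec61g had 27.2 and 26.6 CPM in Lenti-GFP and 21.3 and 20.3 CPM in Lenti-AS (log2 fold change -0.37, adjusted p = 0.0576 from edgeR), and the signal peptidase gene Sec11a had a log2 fold change of -0.26 (adjusted p = 0.0845 from edgeR).

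Of 24 cytosolic heat shock chaperones, 0 were called by edgeR, 1 in each direction by DESeq2 and 1 by limma-voom, with a median of -0.0735. At an unadjusted p under 0.05, 5 were lower and 2 higher, where 9.37% of all genes tested were lower and 12.5% higher. Dnajb4, a cytosolic J-domain protein gene, had 55.7 and 57.2 CPM in Lenti-GFP and 44.2 and 41.5 CPM in Lenti-AS (log2 fold change -0.40, adjusted p = 0.0547 from edgeR), and the heat-inducible Hspa1a had a log2 fold change of -0.34 (adjusted p = 0.0684 from edgeR). Hspa1a shares sequence with Hspa1b, so its counts are uncertain. Of 13 mitochondrial chaperones and proteases, 0 were called by any of these tools, with a median of -0.0345. At an unadjusted p under 0.05, 2 were lower, where 9.37% of all genes tested were lower. They were Grpel1 (log2 fold change -0.25, adjusted p = 0.111 from edgeR) and Yme1l1 (-0.22, adjusted p = 0.173 from edgeR).

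**Figure D4:**
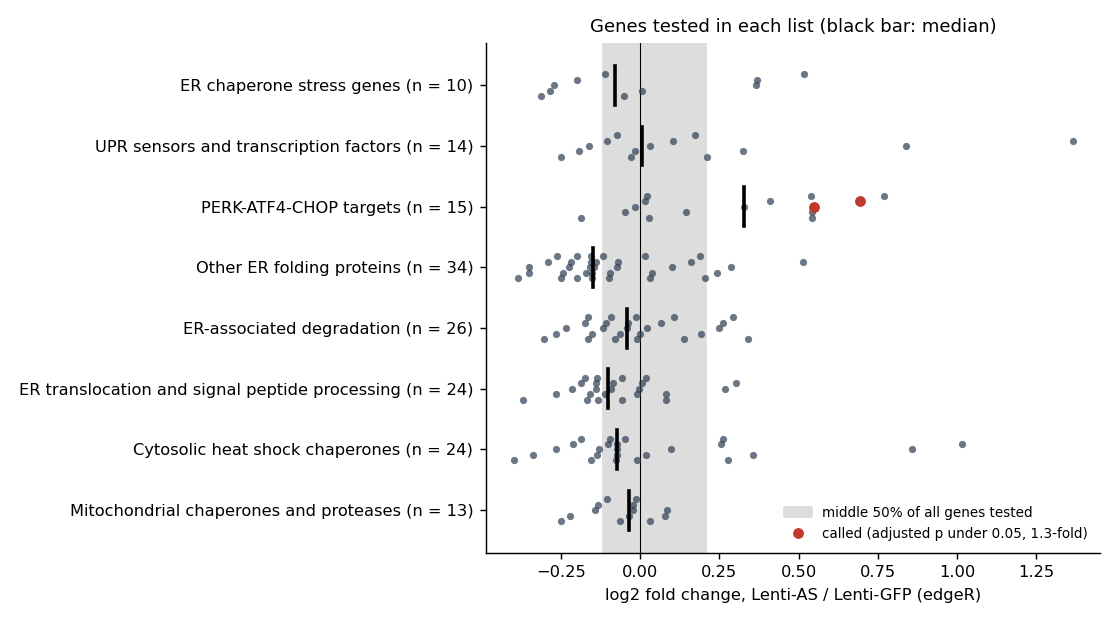
Log2 fold change of Lenti-AS over Lenti-GFP (x axis) for every tested gene of the 10 ER genes and the 7 other lists, with the median of each list as a black bar, called genes in red and the middle 50% of all genes tested in grey. The median is 0.33 for the targets of PERK, ATF4 and CHOP, -0.15 for other ER folding proteins and -0.0799 for the 10 genes.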

How the data were processed

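RNA-seq counts of 4 samples of rat SCs, 2 Lenti-GFP and 2 Lenti-AS, were analysed. The authors sequenced 50 bp paired-end libraries from 2 μg of RNA, aligned reads to rn6 and deposited whole-number read counts per gene from featureCounts on RefSeq exons, with no normalization. The paper names hisat2 as the aligner and the submitters' processing notes name GSNAP. The strand and multi-mapping settings are not given in the sources used here. A row that repeats the header (1 in all) was dropped.

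Lenti-AS was compared with Lenti-GFP in R 4.3.3 by edgeR 4.0.16 (TMM factors, the legacy glmQLFit, glmQLFTest, no replicate block). A gene needed 10 counts or more in 2 samples, which left 12446 genes, and Benjamini-Hochberg adjustment ran over all of these. A call needed an adjusted p under 0.05 together with a 1.3-fold change. Standard errors came from the F statistic and intervals from the total degrees of freedom of each gene. Alternatives were DESeq2 1.42.0, which gave no adjusted p for 2413 genes, limma-voom (limma 3.58.1), RLE, upper-quartile and library-total scaling, other low-count filters, the newer quasi-likelihood fit, a replicate block and leaving out each sample. Total counts of 74024323 to 96185890 limit precision only for low genes such as Ern1.

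The members and lists were chosen with earlier results of these data known. Of 157 other genes listed, 150 were tested. All 10 genes, the called genes of each list, its 2 genes with the smallest p and the paralogs Sdf2, Ern2 and Herpud2 are named. Genes high in Lenti-AS 1 alone, genes called by DESeq2 alone, and Atf3, Ppp1r15a, Atf4, Ddit3, Dnajb12 and Aup1 were chosen after their values were seen.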

Additional observations from a re-analysis of the deposited data

How the results depend on the processing

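None of the 10 genes was called with DESeq2, limma-voom, RLE, upper-quartile or library-total scaling, the other filters, the newer fit or no limit on the fold. Leaving out single samples gave 0 to 2 called genes, with Calr and Herpud1 called without Lenti-AS 2, where 12.2% of all genes were called. In such fits the lone sample is assumed to vary like the other group. The median log2 fold change of the 10 genes lay between -0.191, without Lenti-AS 1, and -0.0157, without Lenti-GFP 2, and between -0.0825 and -0.0482 elsewhere. Signs turned for Hsp90b1 (-0.172 to 0.0633, with 0.0131 without Lenti-GFP 2), Calr (-0.221 to 1.00) and Sdf2l1 (-0.0056 to 0.0210, with -0.0020 without Lenti-GFP 1). Of the other lists, 2 genes were called, against 8 with DESeq2, 0 with the replicate block and 0 to 18 with a sample left out (0 without either Lenti-GFP sample, 8 or 5.33% without Lenti-AS 1, 18 or 12% without Lenti-AS 2). In those fits 0.00803%, 6.76% and 12.2% of all genes were called, so the counts moved as those of the whole table did. Over all genes, 163 were called higher and 83 lower, against 488 and 139 with DESeq2 and 210 and 76 with library totals, which moved the median of all genes to 0.0390. Nothing in the labels ties samples of one replicate number to one another, and their deviations from the group means had a correlation of -0.0176 across genes, so they were not treated as pairs. With the replicate block 3 genes were called higher and 14 lower, and 0 of the 10 genes. Of 130 alternative values of single genes, 109 kept direction and side of the adjusted p threshold, 16 kept direction and gained an adjusted p under 0.05, and 5 turned sign, of which Calr without Lenti-AS 1 also gained it. At this depth counting error limits only Ern1.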
